A study of Mus musculus with 50 samples.

Results

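A set of 9 adipocyte genes was followed through aging in the gastrocnemius muscle of the mouse: Adipoq, Lep, Cfd, Retn, Plin1, Cidec, Fabp4, Car3 and Pparg. They were chosen by symbol as genes that mature fat cells express strongly, and 9 of the 23880 genes in the expression table carried these names. Each of the 9 reached 1 CPM (reads of a gene scaled to the size of its library) in 8 or more mice and so belonged to the 12586 genes tested. The samples were 50 poly(A) RNA libraries, 1 per mouse, from wild type male C57BL/6JRj mice of 8, 18, 22 and 24 months (n = 8 each) and of 26 and 28 months (n = 9 each). Every mouse was singly caged and fed the AIN93M diet. By the study's methods the mice of 8 and 18 months had been on this diet for at least 2 months, those of 22 to 28 months had it from about 18 months on, and mice with signs of illness or tumors at dissection had been left out. Time on the diet and age can therefore not be told apart, either between the younger and the older mice or among the ages from 22 to 28 months, which began the diet at about the same age and so had it for longer the older they were.

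White fat cells store triglyceride in one large lipid droplet and secrete hormones that report the state of that store. PPAR gamma, a nuclear receptor that pairs with RXR on DNA, switches on most of the genes listed above together with C/EBP factors. In skeletal muscle, fat cells lie between the fibre bundles and along nerves and vessels, and fibro-adipogenic progenitors can give rise to them. Some of these genes are also known outside fat cells: Fabp4 in capillary endothelium and Car3 in muscle fibres. In a whole muscle, fewer fat cells and less RNA per fat cell cannot be told apart.

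Positions of genes are given on GRCm38 (GENCODE vM21). Promoters are shown for 4 secreted products, Adipoq, Lep, Cfd and Retn, because these genes fell with age. Each line gives the 250 bases before the RefSeq start on GRCm38.p6, from 5′ to 3′ on the gene's own strand. Capitals mark exact matches, on either strand, to AGGNCA, the half-site of nuclear receptors such as PPAR gamma, or to TTGCNNAA, a C/EBP motif.
Adipoq (chr16:23146286-23146535, + strand): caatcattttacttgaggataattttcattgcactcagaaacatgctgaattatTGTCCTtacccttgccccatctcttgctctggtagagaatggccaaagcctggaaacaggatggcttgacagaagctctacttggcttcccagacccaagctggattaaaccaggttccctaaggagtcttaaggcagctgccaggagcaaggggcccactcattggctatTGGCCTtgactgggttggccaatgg
Lep (chr6:29059971-29060220, + strand): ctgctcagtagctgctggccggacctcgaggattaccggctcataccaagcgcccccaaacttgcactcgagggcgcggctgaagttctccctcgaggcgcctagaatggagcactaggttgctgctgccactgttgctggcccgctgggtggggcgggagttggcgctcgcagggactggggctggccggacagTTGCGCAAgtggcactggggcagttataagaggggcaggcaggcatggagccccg
Cfd (chr10:79890603-79890852, + strand): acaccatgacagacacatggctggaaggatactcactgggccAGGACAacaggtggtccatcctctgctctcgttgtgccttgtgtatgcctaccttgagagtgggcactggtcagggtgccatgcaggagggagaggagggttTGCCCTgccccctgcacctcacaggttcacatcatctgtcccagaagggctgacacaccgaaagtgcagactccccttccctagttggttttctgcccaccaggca
Retn (chr8:3655520-3655769, + strand): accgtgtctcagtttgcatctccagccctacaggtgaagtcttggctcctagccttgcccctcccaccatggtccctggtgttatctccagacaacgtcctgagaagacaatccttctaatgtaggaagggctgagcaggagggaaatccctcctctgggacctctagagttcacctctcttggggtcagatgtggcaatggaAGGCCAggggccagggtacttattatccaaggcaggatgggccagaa
Adipoq held half-sites starting 196 and 25 bases before its start, Cfd 208 and 106 bases before, and Retn 47 bases before. Lep held no half-site in this window but a C/EBP match 55 bases before its start that reads the same on both strands. Promoters of 7 of the 9 genes were in the RefSeq table, while Fabp4 and Car3 were not. Plin1, on chromosome 7, held C/EBP matches 187 and 58 bases before its start. None of the promoters of the 7 genes held 2 half-sites in direct repeat with a spacer of 1 base, the arrangement that PPAR gamma and RXR bind. Shares over all promoters were counted in a window longer than the 250 bases shown, which also held bases after the start. Among 32851 promoters, 0.381% held this repeat there, 57.2% a half-site and 10.8% a C/EBP match, so that most promoters held a half-site. These are matches of letters, and no binding was measured.

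Across the 9 genes, levels per transcript length spanned a wide range. Car3 had the highest mean over the 50 mice, 2390 TPM (reads scaled to transcript length and library size), followed by Fabp4 with 370.1 TPM and Cfd with 125 TPM. Adipoq reached 25.0 TPM, Cidec 17.6 TPM, Plin1 9.14 TPM, Retn 8.60 TPM and Pparg 5.56 TPM. Lep was lowest with a mean of 1.84 TPM and a range from 0 to 11.3 TPM. The total count per library ran from 13607229 to 21267375 reads. The mouse labelled 28 months replicate 2 was the least like others of its age, with a median Spearman's rho over genes of 0.966 to the mice of its age where all other mice had at least 0.976, and counts and calls at 28 months that changed without it are given both ways where they are described. Fibre genes marked every library as muscle, with a summed level of 81600 to 116700 TPM for 6 fast fibre genes.

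An edgeR quasi-likelihood F-test over the 6 ages asked which of the 9 genes differed between any ages. It called 6 of them at a false discovery rate (FDR) below 0.01, beside 35.4% of all genes tested. These were Lep (FDR = 1.59e-06), Adipoq (7.12e-06), Plin1 (1.29e-05), Cfd (0.00216), Car3 (0.00259) and Retn (0.00657). Cidec (0.0212), Fabp4 (0.233) and Pparg (0.635) did not pass. Without 28 months replicate 2 the test called 5 of the 9, beside 4016 of 12567 genes. In the order of each gene's mean levels, no 2 neighbouring ages differed at this threshold for any of the 9 genes, so the differences lay between ages further apart.

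**Figure D1:**
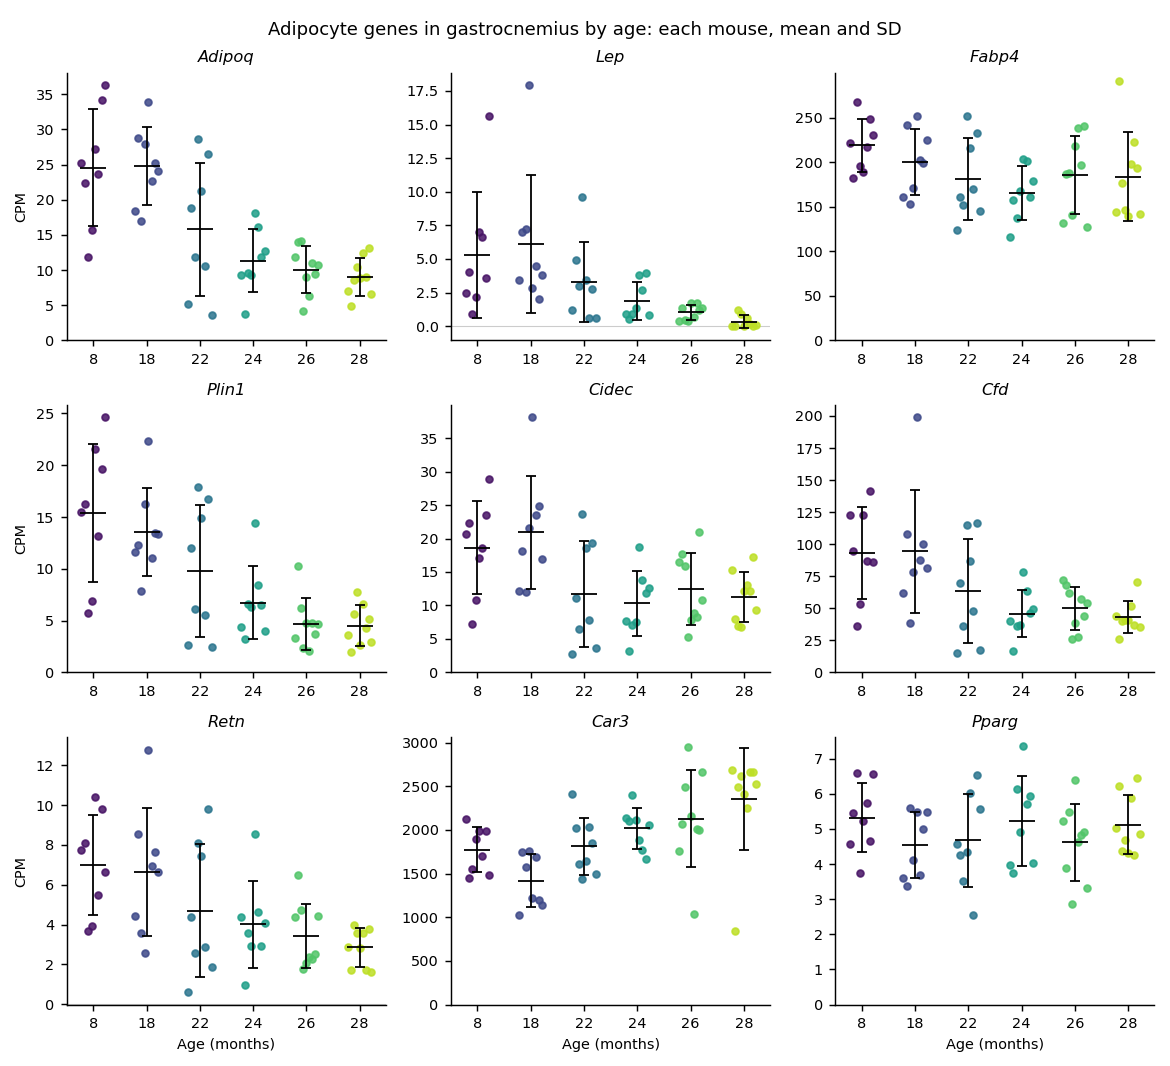
CPM (vertical axes, linear from 0) of the 9 adipocyte genes in each mouse by age in months, with 1 point per mouse and the mean and SD as black bars. Adipoq, Lep and Plin1 have their lowest means at 28 months, Car3 has its highest mean there with 1 mouse at 844 CPM, and Fabp4 and Pparg overlap at all ages.

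Adipoq (ENSMUSG00000022878, chr16:23146536-23158028, + strand) encodes adiponectin, the hormone most abundantly secreted by fat cells. Its level was 24.6 ± 8.32 CPM at 8 months, 24.8 ± 5.55 CPM at 18 months, 15.8 ± 9.43 CPM at 22 months, 11.3 ± 4.44 CPM at 24 months, 10.1 ± 3.29 CPM at 26 months and 8.99 ± 2.68 CPM at 28 months (mean ± SD). Single mice ranged over 11.8 to 36.4 CPM with a median of 24.4 at 8 months and over 4.93 to 13.1 CPM with a median of 8.83 at 28 months. All 9 of 9 mice at 28 months lay below the mean at 8 months and 7 lay below every 8-month mouse, while against 18 months the groups did not overlap. The log2 change between 28 and 8 months was -1.45 ± 0.28 (SE, FDR = 3.96e-05), which left 0.366 of the 8-month level. At 26 months the change against 8 months was -1.28 ± 0.28 (FDR = 0.000601).

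Lep (ENSMUSG00000059201, chr6:29060220-29073877, + strand) encodes leptin, the satiety hormone whose output follows the size of the fat store, and it had the largest log2 change of the 9 genes. It stood at 5.3 ± 4.68 CPM at 8 months, 6.08 ± 5.12 CPM at 18 months, 3.27 ± 2.96 CPM at 22 months, 1.87 ± 1.4 CPM at 24 months, 1.03 ± 0.558 CPM at 26 months and 0.332 ± 0.474 CPM at 28 months (mean ± SD). The highest mouse reached 15.6 CPM at 8 months and 17.9 CPM at 18 months, against 1.22 CPM at 28 months. At 8 months every mouse had between 18 and 315 Lep reads. At 28 months the reads ran from 0 to 19 with a median of 1, and 4 of 9 mice had none, which at their depth allows at most 0.161 to 0.207 CPM (3 reads, counting error only). Of the 9 mice at 28 months, 7 lay below all 8-month mice, and all 9 lay below every 18-month mouse. The log2 change between 28 and 8 months was -3.98 ± 0.64 (FDR = 3.24e-06). Its size depends on how low values are handled, and on the log2(TPM + 1) scale, which compresses low genes, it was -1.65.

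Cfd (ENSMUSG00000061780, chr10:79890853-79892655, + strand) encodes complement factor D, also called adipsin, a protease of the alternative complement pathway made mainly by fat. Its level was 93 ± 35.8 CPM at 8 months, 94.3 ± 47.6 CPM at 18 months, 63.2 ± 40.5 CPM at 22 months, 45.9 ± 18.6 CPM at 24 months, 49.9 ± 17 CPM at 26 months and 43 ± 12.4 CPM at 28 months (mean ± SD). Mice ranged over 36 to 141 CPM with a median of 90.8 at 8 months and over 25.8 to 70.2 CPM with a median of 41.1 at 28 months, so the groups overlapped, though 9 of 9 old mice lay below the 8-month mean. The log2 change was -1.11 ± 0.31 (FDR = 0.00265). With limma on log2(TPM + 1) it was -0.97 and no longer passed.

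Retn (ENSMUSG00000012705, chr8:3655770-3660110, + strand) encodes resistin, a secreted peptide that fat cells make in the mouse. It measured 6.97 ± 2.5 CPM at 8 months, 6.63 ± 3.23 CPM at 18 months, 4.7 ± 3.33 CPM at 22 months, 4.01 ± 2.17 CPM at 24 months, 3.45 ± 1.61 CPM at 26 months and 2.85 ± 0.956 CPM at 28 months (mean ± SD). Mice spanned 3.69 to 10.4 CPM with a median of 7.2 at 8 months and 1.6 to 3.99 CPM with a median of 2.89 at 28 months, and 7 of 9 old mice lay below every 8-month mouse. The log2 change was -1.29 ± 0.35 (FDR = 0.0019).

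Plin1 (ENSMUSG00000030546, chr7:79720218-79732903, - strand) encodes perilipin 1, the coat protein that guards the fat cell's droplet from lipases. Its level was 15.4 ± 6.67 CPM at 8 months, 13.5 ± 4.27 CPM at 18 months, 9.79 ± 6.33 CPM at 22 months, 6.73 ± 3.55 CPM at 24 months, 4.67 ± 2.48 CPM at 26 months and 4.52 ± 1.95 CPM at 28 months (mean ± SD). Mice ranged over 5.75 to 24.6 CPM with a median of 15.9 at 8 months and over 1.93 to 7.76 CPM with a median of 4.32 at 28 months, with 7 of 9 old mice below the lowest young one. The log2 change was -1.77 ± 0.34 (FDR = 3.59e-05), or 0.293 of the 8-month level.

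Cidec (ENSMUSG00000030278, chr6:113424634-113435760, - strand) encodes a droplet protein that helps small droplets fuse into a large one. Its level was 18.6 ± 6.96 CPM at 8 months, 20.9 ± 8.42 CPM at 18 months, 11.7 ± 7.92 CPM at 22 months, 10.3 ± 4.88 CPM at 24 months, 12.5 ± 5.41 CPM at 26 months and 11.2 ± 3.72 CPM at 28 months (mean ± SD). Mice ranged over 6.76 to 17.3 CPM with a median of 12.2 at 28 months, within or below the 7.28 to 28.9 CPM with a median of 19.6 at 8 months. The log2 change of -0.73 ± 0.32 did not pass (FDR = 0.0498).

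Fabp4 (ENSMUSG00000062515, chr3:10204088-10208576, - strand) encodes a fatty acid carrier of fat cells and capillary endothelium. Its level was 219 ± 29.7 CPM at 8 months, 200.3 ± 37.2 CPM at 18 months, 181 ± 46 CPM at 22 months, 165 ± 29.8 CPM at 24 months, 185 ± 43.8 CPM at 26 months and 184 ± 50.1 CPM at 28 months (mean ± SD). Old mice spanned 140.0 to 291 CPM with a median of 176 at 28 months, and the highest was 28 months replicate 2. The log2 change of -0.25 ± 0.15 did not pass (FDR = 0.141), nor did -0.37 without that mouse (FDR = 0.029).

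Pparg (ENSMUSG00000000440, chr6:115360951-115490399, + strand) encodes PPAR gamma itself. Its level was 5.32 ± 0.989 CPM at 8 months, 4.55 ± 0.946 CPM at 18 months, 4.67 ± 1.32 CPM at 22 months, 5.22 ± 1.28 CPM at 24 months, 4.62 ± 1.1 CPM at 26 months and 5.12 ± 0.847 CPM at 28 months (mean ± SD), and the groups overlapped throughout. The log2 change between 28 and 8 months was -0.06 ± 0.16 (FDR = 0.778).

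Car3 (ENSMUSG00000027559, chr3:14863512-14872523, + strand) encodes carbonic anhydrase 3, a cytosolic enzyme abundant in fat cells and in muscle fibres, and its mean was higher at 28 than at 8 months. Its level was 1773 ± 259 CPM at 8 months, 1418 ± 304 CPM at 18 months, 1813 ± 329.8 CPM at 22 months, 2017 ± 234 CPM at 24 months, 2130 ± 554 CPM at 26 months and 2351 ± 583 CPM at 28 months (mean ± SD). Of the 9 mice at 28 months, 8 lay between 2248 and 2692 CPM, above every 8-month and every 18-month mouse, and the ninth, replicate 2, stood at 844 CPM, below all of them. The log2 difference between 28 and 8 months was 0.41 ± 0.16 and did not pass (FDR = 0.0252), whereas without that mouse it was 0.51 (FDR = 0.00127). Against 18 months, the lowest age, Car3 was 1.66-fold higher at 28 months (log2 change 0.73 ± 0.16, FDR = 0.000196).

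Taking the contrasts with 8 months in turn, which all share the same 8 control mice, the edgeR quasi-likelihood test called none of the 9 genes at 18, 22 or 24 months at FDR below 0.01. Genes called lower were also few in the whole table, 0.0318% at 18 months, 0% at 22 months and 0.294% at 24 months. Adipoq came closest at 24 months (log2 change -1.12 ± 0.29, FDR = 0.0208), then Plin1 (-1.20 ± 0.34, FDR = 0.044). At 26 months Adipoq, Lep and Plin1 were lower, 3 of 9 genes beside 8.55% of all genes. Between 28 and 8 months Adipoq, Lep, Plin1, Cfd and Retn were lower, 5 of 9 beside 18.7% of all genes called lower, and none was higher beside 21% of all genes. Without 28 months replicate 2 the same 5 were lower and Car3 was called higher (FDR = 0.00127). That fit called 2235 genes higher and 2101 lower among 12567. With all mice, the median log2 change was -1.11 over the 9 genes and 0.0072 over all genes tested. Mice of 28 months lay below every 8-month mouse without overlap for 2.24% of all genes and for 0 of the 9. The same 5 genes were lower against 18 months (16.5% of all genes were), and Car3 was higher (19.1% of all genes were). Adipoq, Lep and Plin1 showed no overlap between 28 and 18 months, 3 of 9 beside 1.91% of all genes.

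**Figure D2:**
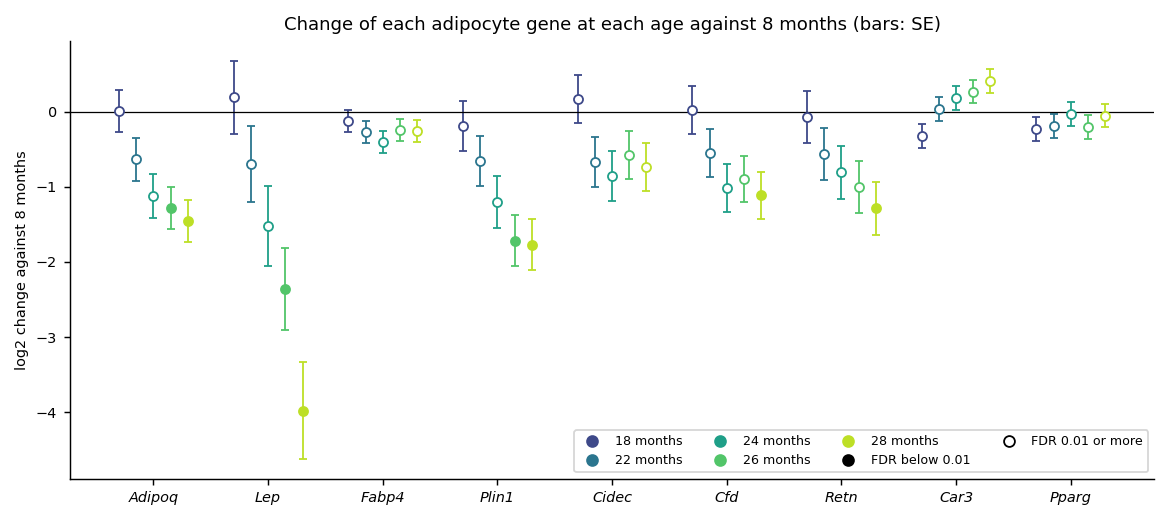
Log2 change of each adipocyte gene at 18, 22, 24, 26 and 28 months against 8 months (vertical axis, log2 scale), with the SE as bars, filled points at FDR below 0.01 and open points otherwise. Lep reaches -3.98 at 28 months, Adipoq and Plin1 pass from 26 months on, and Fabp4, Pparg and Cidec have open points only.

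Among mice that began the diet at about the same age, the comparison of 28 with 22 months, in which age and time on the diet both rise, called Lep and Plin1 lower, 2 of 9 beside 11.5% of all genes. Lep changed by -3.28 ± 0.66 (FDR = 0.000169) and Plin1 by -1.12 ± 0.34 (FDR = 0.00784) on the log2 scale. The call of Plin1 was lost when any of several single mice was left out, replicate 2 of 28 months among them (FDR = 0.0197), while that of Lep was not lost in any such fit. Car3 gave 0.38 ± 0.16 (FDR = 0.0467) and was called higher without that replicate (log2 change 0.48, FDR = 0.00449). Adipoq gave -0.81 ± 0.28 (FDR = 0.0178) and Retn -0.72 ± 0.35 (FDR = 0.0961). Against 24 months only Lep was lower at 28 months (log2 change -2.45 ± 0.70, FDR = 0.00972), 1 of 9 beside 3.04% of all genes. The coefficient of variation of Adipoq, Plin1, Cidec, Cfd, Retn and Pparg was largest at 22 months. The Adipoq values of these mice covered 3.59 to 28.6 CPM, a coefficient of variation of 59.7%, against 33.9% at 8 months and 29.8% at 28 months, and Retn covered 0.595 to 9.80 CPM there.

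Because Lep and Adipoq both come from fat cells, their reads were also compared within each mouse, a measure chosen after the values were seen. Per 100 Adipoq reads, the median mouse had 16 Lep reads at 8 months, 19.2 at 18 months, 20.5 at 22 months, 14 at 24 months, 10.9 at 26 months and 1.01 at 28 months. The range was 7.5 to 43 at 8 months and 0 to 14.2 at 28 months. With 0.5 reads added to both counts, the log2 ratio was lower by 3.46 at 28 than at 8 months (two-sided exact permutation test, p = 0.000905), and 9 of 9 old mice lay below the 8-month mean. The difference was 3.54 in size against 22 months (exact permutation p = 0.000658) and 2.66 against 26 months (exact permutation p = 0.00485). These 3 comparisons share the 28-month mice, and their p-values are unadjusted.

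**Figure D3:**
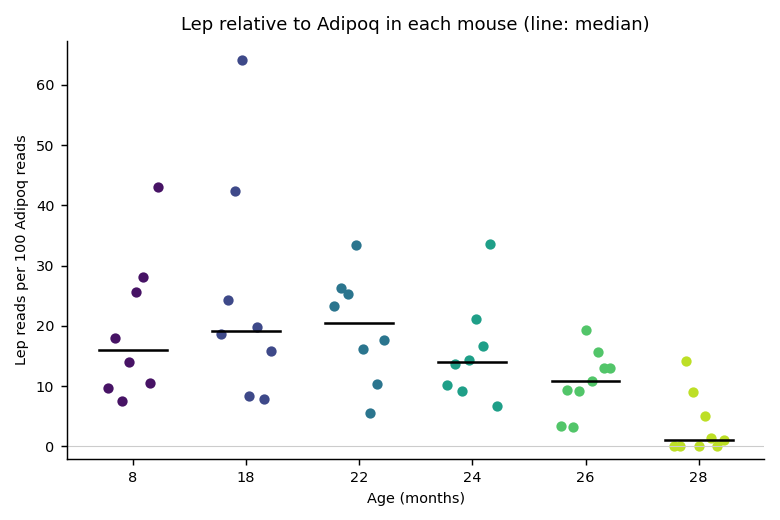
Lep reads per 100 Adipoq reads (vertical axis, linear) in each mouse by age in months, with 1 point per mouse and the median as a line. The median is 16 at 8 months and 1.01 at 28 months, where 4 mice are at 0.

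To ask whether the genes vary together between mice of 1 age, the mean of each age was subtracted from log2(CPM + 1) and each gene was correlated with Adipoq over the 50 mice. In all, 8 relations were tested by permuting mice within ages, with Benjamini-Hochberg adjustment over the 8. Cfd followed Adipoq most closely (Pearson's r = 0.93, Spearman's rho = 0.90), then Plin1 (0.89 and 0.86), Cidec (0.87 and 0.81) and Retn (0.82 and 0.80). For these 4 the permutation p was 1e-05, the smallest that 100000 permutations can give, with an adjusted p of 2e-05, for r and for rho alike. When the 2 mice with the most extreme Adipoq values were dropped, r became 0.91, 0.89, 0.84 and 0.81. The r within single ages was positive at 6 of 6 ages for all 4, the lowest being 0.38 for Cidec. Lep followed less closely (r = 0.58, permutation p = 9e-05, adjusted 0.000144, and rho = 0.53, permutation p = 0.00041, adjusted 0.000656). Its r was 0.53 without the 2 mice.

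The other members were looser. Fabp4 gave r = 0.36 (permutation p = 0.0181, adjusted 0.0242) and rho = 0.41 (permutation p = 0.00558, adjusted 0.00744), and 0.36 without the 2 mice, but its r was positive at only 3 of 6 ages. Pparg gave r = 0.26 (permutation p = 0.133, adjusted 0.152) and rho = 0.28 (permutation p = 0.0683, adjusted 0.078), and r = 0.31 without the 2 mice. Car3 did not follow Adipoq (r = 0.07, permutation p = 0.578, adjusted 0.578, and rho = -0.05, permutation p = 0.741, adjusted 0.741), with r = 0.04 without the 2 mice. Over the 15 pairs among Adipoq, Lep, Plin1, Cidec, Cfd and Retn the median r was 0.79 (range 0.28 to 0.93). It was 0.20 (range -0.48 to 0.42) over the 21 pairs that include Fabp4, Car3 or Pparg, so the ranges overlapped. This split mirrors the relations to Adipoq given above, so the medians describe them and are no separate test. Car3 and Fabp4 had an r of -0.48, and -0.35 without 28 months replicate 2.

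The 9 genes were also set against mean levels of markers of other cells, 36 relations in all. By r, 6 passed an adjusted p of 0.05. Of these, 5 were with Schwann cells, the myelinating cells of the nerves that enter the muscle (10 of 10 markers tested, Mbp and Pmp22 among the highest). The r was 0.69 for Cfd, 0.68 for Adipoq, 0.64 for Plin1, 0.62 for Retn and 0.61 for Cidec, with rho of 0.68, 0.72, 0.61, 0.62 and 0.56 and permutation p between 1e-05 and 9e-05 (adjusted 0.00012 to 0.000648), and r was positive at 5 or 6 of the 6 ages. Without the 2 mice at the extremes of the score the r values ran from 0.56 to 0.65. Mice with more of these fat cell transcripts thus had more Schwann cell transcripts as well. Fabp4 passed with the Schwann score by rho only (rho = 0.41, permutation p = 0.00383, adjusted 0.0197, and r = 0.36, permutation p = 0.0108, adjusted 0.0557). The summed level of the Schwann markers was 91.1 to 373 TPM at 8 months and 107 to 298 TPM at 28 months. At 28 against 8 months 1 of 10 markers, S100b, was lower beside 18.7% of all genes, and none was higher beside 21%. The part that nerve and the fat beside it at dissection have in the age differences was not tested. The sixth relation joined Car3 inversely to 11 endothelial markers (r = -0.44, permutation p = 0.00068, adjusted 0.00408, rho = -0.42, permutation p = 0.00376, adjusted 0.0197), with r = -0.33 without the 2 mice at the extremes of the score and -0.43 without 28 months replicate 2. Fabp4 and the endothelial score gave r = 0.36 (permutation p = 0.0149, adjusted 0.0669), and Car3 and the slow fibre score gave r = -0.16 (permutation p = 0.248).

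**Figure D4:**
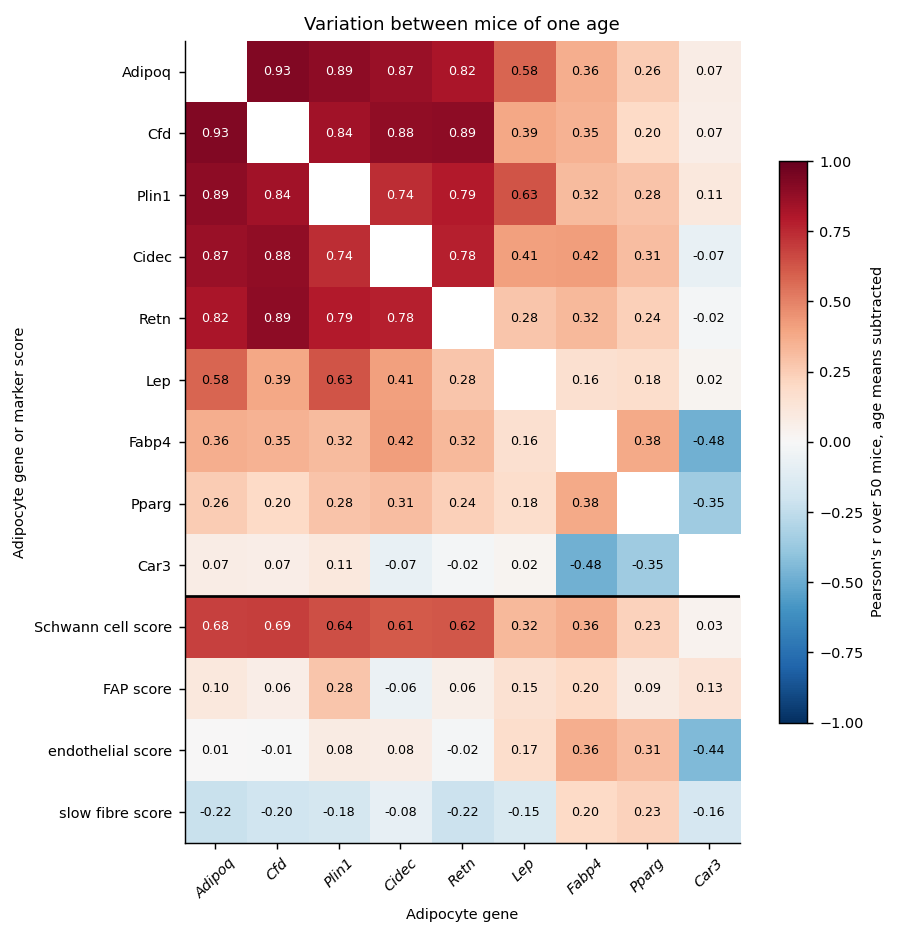
Pearson's r over 50 mice, after subtracting the mean of each age, between the 9 adipocyte genes (columns) and the same genes or 4 marker scores (rows, below the line). FAP stands for fibro-adipogenic progenitor. Adipoq, Cfd, Plin1, Cidec and Retn form a block with r of 0.74 or more and reach 0.61 to 0.69 with the Schwann cell score, while Car3 stands apart.

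Genes outside the 9 were ranked by r with the mean of the 9 after the same centring, among 12078 genes. The 15 highest were Prkar2b (r = 0.85), Rbp4 (0.84), Phgdh, Tmem45b, Slc36a2, Cdo1, Lgals12, Kcnj15, Slc1a5, Scd1, Slc7a10, Heph, Smoc1, Car5b and Aoc3 (0.71). The ranking used only differences between mice of 1 age. Of the 15, 12 were lower at 28 than at 8 months, with and without 28 months replicate 2, beside 18.7% of all genes with every mouse in the fit. Prkar2b, a regulatory subunit of protein kinase A, fell from 7.37 to 2.88 CPM (log2 change -1.36 ± 0.29, FDR = 0.000137). Lgals12, a galectin of the fat droplet, fell from 3.29 to 0.746 CPM (-2.14 ± 0.35, FDR = 3.5e-06). Scd1, the desaturase that makes monounsaturated fatty acids, fell from 590 to 172 CPM (-1.78 ± 0.37, FDR = 9.69e-05).

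Lists of related genes, which were chosen with earlier results of these data known, show how far the pattern of the 9 went. Of 15 other fat cell genes tested, 12 were lower and 1 was higher at 28 than at 8 months, beside 18.7% and 21% of all genes. Their median log2 change was -1.13. Nnat, the imprinted gene for neuronatin, fell from 5.77 ± 5.41 to 0.206 ± 0.296 CPM (-4.78 ± 0.83, FDR = 9.99e-06). Adrb3, the beta-3 adrenergic receptor that triggers lipolysis, fell from 1.12 ± 0.58 to 0.194 ± 0.152 CPM (-2.47 ± 0.46, FDR = 2.16e-05). Nnat and Adrb3 both averaged below the 1 CPM of the filter at 28 months, so the sizes of these 2 log2 changes are uncertain. Sncg, gamma-synuclein, fell by 0.79 (FDR = 0.00117). Npr3, the natriuretic peptide clearance receptor, was the one that rose (0.92 ± 0.27, FDR = 0.0045), and it did not pass without 28 months replicate 2 (FDR = 0.0199). Pck1 (-0.75, FDR = 0.102) and Gpd1 (-0.37, FDR = 0.0372) did not pass.

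Of 14 genes of fatty acid and triglyceride synthesis, 9 were lower and none was higher, beside 18.7% and 21% of all genes. Their median was -0.52, and 7 were lower without 28 months replicate 2. Besides Scd1, Fasn, the fatty acid synthase, fell from 106 ± 54.8 to 44.2 ± 30.8 CPM (-1.26 ± 0.38, FDR = 0.00528, and 0.013 without that mouse), and Me1, malic enzyme, fell by 0.57 (FDR = 5.94e-06). Of 11 droplet coats and lipases, 2 were higher and 2 lower, near those shares of all genes. Plin4, a droplet coat protein that muscle fibres also make, rose from 374 ± 143 to 883 ± 302 CPM (1.24 ± 0.23, FDR = 2.2e-05) and Pnpla2, the triglyceride lipase, rose by 0.67 on the log2 scale (FDR = 0.000258). Plin2 fell by 0.50 (FDR = 0.000457), and Abhd5, the coactivator of that lipase, by 0.25 (FDR = 0.000865).

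Partners of PPAR gamma gave 6 of 21 higher and 2 lower, beside 21% and 18.7% of all genes, with a median of 0.24. Without 28 months replicate 2 they gave 5 higher and 2 lower. Cebpd, a C/EBP factor of early fat cell formation, rose from 0.658 ± 0.334 to 4.71 ± 4.42 CPM (2.82 ± 0.50, FDR = 1.27e-05), and Klf15, a Krüppel-like factor of fat and muscle, rose from 43.2 ± 6.19 to 116 ± 52.8 CPM (1.42 ± 0.20, FDR = 3.09e-07). Zfp423, a preadipocyte factor, fell by 0.55 (FDR = 6.29e-05) and Rxrg, a partner receptor, by 0.51 (FDR = 0.00182). Of 12 receptors and signalling genes downstream of adiponectin, leptin and resistin, 6 were higher and 1 was lower, beside the same shares of all genes. Without that mouse 5 were higher and none lower. Adipor2, an adiponectin receptor, rose by 0.31 (FDR = 5e-05) and Prkaa2, a catalytic subunit of AMP kinase, by 0.45 (FDR = 0.000247), while Adipor1 fell by 0.22 (FDR = 0.00885, and 0.016 without 28 months replicate 2). Tlr4, a reported receptor of resistin, rose by 1.34 (FDR = 2.81e-06). Socs3, the feedback inhibitor of leptin signalling, rose by 1.32 (FDR = 0.00576), and by 0.45 without that mouse (FDR = 0.244). Among complement genes around factor D, the receptor C5ar1 rose by 0.74 (FDR = 0.00595, and 0.0521 without that mouse), and C3, at 145 ± 38 and 180 ± 43 CPM, did not pass (FDR = 0.126). Among 9 family members of Fabp4, Car3, Retn and Cidec, Car14, another carbonic anhydrase, rose by 0.83 (FDR = 0.000169) and Retnla fell by 0.71 (FDR = 0.00452), while Fabp3, the carrier of muscle fibres, changed by -0.73 without passing (FDR = 0.0157).

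Other cell types are given beside these lists, against 21% of all genes higher and 18.7% lower between 28 and 8 months. Of 12 fibro-adipogenic progenitor markers, 9 were lower and none higher (median -0.91), led by the collagens Col3a1 (-2.29, FDR = 1.32e-07) and Col1a1 (-2.08, FDR = 3.12e-06). Pdgfra (-0.30, FDR = 0.0258), Dcn (-0.20, FDR = 0.0466) and Ly6a (0.02, FDR = 0.92) did not pass. The summed level of the 12 markers was 1967 to 2843 TPM at 8 months and 1423 to 2011 TPM at 28 months. Within ages their score did not pass with any of the 9 genes, the closest being Plin1 (r = 0.28, permutation p = 0.0353). Of 7 tendon markers, 3 were lower. Of 11 endothelial markers 1 was higher and 1 lower, and their summed level was 469 to 707 TPM at 8 months and 478 to 759 TPM at 28 months. Of 11 macrophage markers, 8 were higher, and 4 of 11 without 28 months replicate 2. In the remaining lists, 1 of 9 slow fibre, 2 of 6 fast fibre (1 of 6 without that mouse), 1 of 5 erythroid, 1 of 2 epidermal and 1 of 2 lymphoid genes tested were higher and none of them lower. The epidermal gene was Trp63 (1.46, FDR = 6.15e-05), while Krt10 changed by -1.19 without passing (FDR = 0.103). The keratins Krt5, Krt14 and Krt1 had a mean of 0 CPM at 8 and at 28 months. At the ages between they were not absent, with highest values of 14.6, 10.9 and 2.58 TPM. Those ages are part of the fit and of the relations within ages. Of 8 brown fat markers 3 were expressed enough to test, of which Cox8b, also a muscle gene, fell by 0.67 (FDR = 3.36e-05). The part of these cell types in the changes of the 9 genes was not tested.

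**Figure D5:**
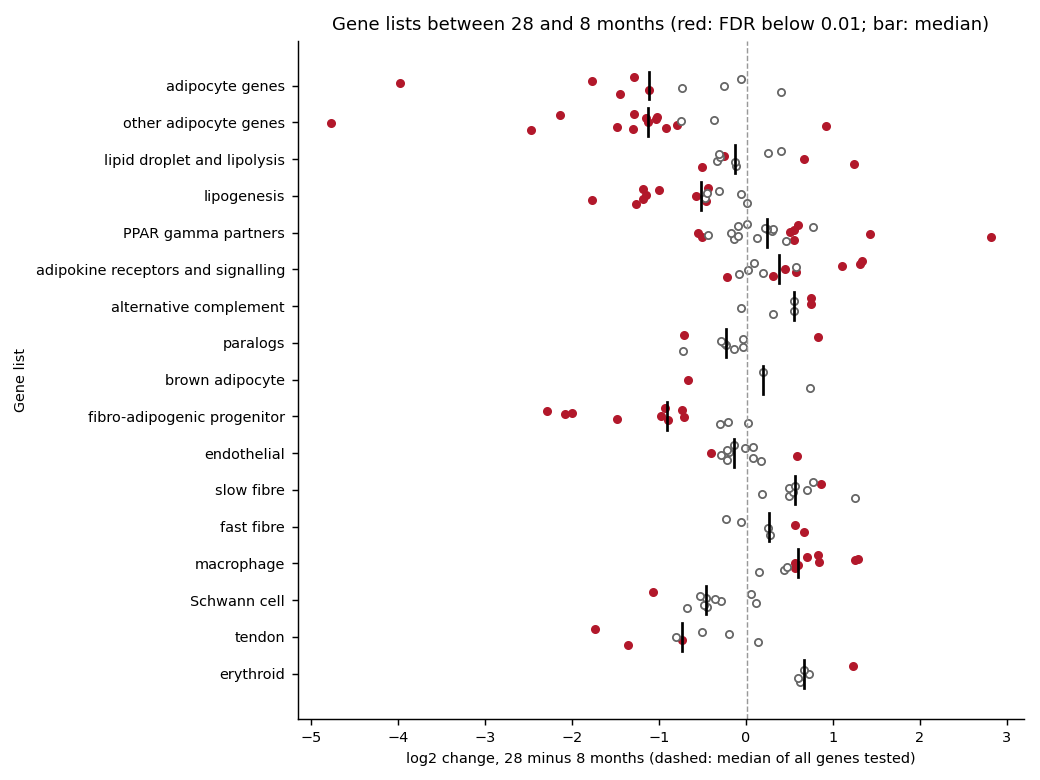
Log2 change between 28 and 8 months (horizontal axis) of each gene tested in the 9 adipocyte genes and in lists of at least 3 genes (rows), with red points at FDR below 0.01, open points otherwise, a bar at each list's median and a dashed line at the median of all genes, 0.0072. The 9 genes and the 15 other fat cell genes have medians of -1.11 and -1.13.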

How the data were processed

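Gastrocnemius RNA-seq libraries of 50 mice were used. According to the study's methods, the authors trimmed stranded reads with cutadapt 1.9.1 (versions as in the submitters' processing notes), assigned them with kallisto 0.43.1 to protein-coding transcripts of GRCm38 and split reads that matched several transcripts evenly. They deposited whole-number read counts per gene and TPM values per gene. Counts were analysed as deposited, and how fractions were rounded is not given in the sources used here. Genes that reached 1 CPM in 8 or more mice entered 1 edgeR 4.0.16 quasi-likelihood fit over the 6 ages with TMM factors (R 4.3.3), with Benjamini-Hochberg adjustment over all genes of a test and a threshold of FDR 0.01. CPM values use the TMM-scaled library size. SE is the log2 change divided by the root of F. On simulated counts of 12526 genes, the fit called 89% of 200 genes changed by 2-fold between 28 and 8 months and 91.5% over the 6 ages. Depth limits Lep most, with a median of 1 read at 28 months. Alternatives used other size factors, DESeq2 1.42.0, limma 3.58.1 on log2(TPM + 1) and log2(TPM + 0.1), no filter, a replicate block and mice left out in turn.

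Gene lists were read by symbol, and 6 listed symbols were not used because they had no match. Named genes were the 9 members, the 3 highest by TPM and the 2 largest increases and decreases past the threshold in each list, from which examples are given, and the 15 most correlated genes. The members and lists were chosen with earlier results of these data known. Same-numbered mice of different ages did not deviate together on average (mean r = 0.0403, range -0.607 to 0.43, beside a mean of -0.00503 for other numbers). The main fit therefore did not pair samples by number. This average cannot show whether some numbers shared a batch, and the replicate block is given as an alternative.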

Additional observations from a re-analysis of the deposited data

Results flagged for a closer look

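Each of the 9 genes was examined at each of the 6 ages for a single mouse far from the rest of its group on log2(CPM + 1). Of 54 such groups 3 held one, and chance alone gives about 1 in 20. Car3 in 28 months replicate 2 stood at 844 CPM, where the other 8 mice ranged from 2248 to 2692 CPM. Car3 in 26 months replicate 6 stood at 1042 CPM beside 1761 to 2954 CPM in the others. Adipoq in 24 months replicate 2 stood at 3.79 CPM beside 9.29 to 18.1 CPM.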

How the results depend on the processing

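Between 28 and 8 months Adipoq, Lep, Plin1 and Retn passed under all 8 other settings and in all 17 fits that left out 1 mouse. Cfd passed in 6 of 8 settings and all 17 such fits. Leaving out single mice gave 5 to 6 of the 9 genes called and 4336 to 5418 genes in all, and 5 to 7 and 3929 to 4859 over the 6 ages. For 28 against 22 months it gave 1 to 3 of the 9 genes and 2521 to 4221 genes, and moved the log2 change of Fabp4 between -0.10 and 0.10 and of Cidec between -0.21 and 0.17. With upper-quartile factors Fabp4 changed there by -0.05, 28 against 22 months gave 1494 higher and 1946 lower genes where TMM gave 2033 and 1452, and 14 genes in place of 5 were called between 22 and 8 months. Limma on TPM put Pparg at 0.04 and 0.05 between 28 and 8 months. The cause of these shifts was not tested. With the replicate block, 122 genes in place of 77 were called between 24 and 8 months, 4 of the 9 genes over the 6 ages (without Retn and Car3) and 1 between 28 and 22 months (Lep). Of 50 mice, 7 had their closest mouse of another age under the same number. The edgeR test called 0 of the 9 genes at 18, 22 and 24 months, where 460, 1134 and 2422 genes had an unadjusted p below 0.05. With other size factors or the block it gave 0 there too. In log2(TPM + 1), 8 marker relations passed by r in place of 6. The difference in the log2 ratio of Lep to Adipoq, 28 minus 8 months, was -3.86 to -3.12 without single mice (exact permutation p of 0.000311 to 0.00192), and -2.94 with 1 read added (exact permutation p = 0.000905). These, and the list counts without 28 months replicate 2, were chosen after seeing the data.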
